A study of Mus musculus with 8 samples.

Results

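Genes that build and serve the cilium were compared between ribosome-bound RNA samples of Müller cells, radial glia that span the mouse retina. The 55 genes were the rows of the FPKM table whose symbols name the intraflagellar transport (IFT) and BBSome proteins, the ciliary motors, the Ttll enzymes, the ciliary Arl GTPases and the transition zone, and 2 further genes listed singly, Efcab7 and Erich3. They stood among 12339 genes in all, and were chosen by symbol, at a time when results of these data were known. By the same names the rule takes 74 protein-coding genes of GENCODE M21, of which 54 were in the table. The other member, Tctn2, has a different gene class there. Each gene of the table had a mean over 2 FPKM (fragments scaled by transcript length and library size), and the 20 genes outside it, among them 13 of 15 Dnah genes and Kif17, were not analysed here.

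In 4 libraries Nrf2 had been conditionally knocked out in Müller cells (cKO), and 4 were wild type (WT), numbered 1, 3, 4 and 5 in each group. All 8 came from retina at postnatal day 14 of oxygen-induced retinopathy, a model in which a stay in high oxygen prunes retinal vessels and the return to normal air leaves the tissue short of oxygen. With RiboTag, Cre switches a ribosomal protein to an epitope-tagged form, and the tag serves to pull down the ribosomes of those cells with their RNA. The Cre driver, the deleted part of Nrf2, the strain, the sex and the number of animals per library are not given in the labels, so p-values measure the spread between these libraries. The question was how RNA on Müller cell ribosomes differs without Nrf2, the transcription factor of the antioxidant response.

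A primary cilium is a thin extension built on a centriole around microtubule doublets, the axoneme. Cargo is carried up it by kinesin-2 and back by dynein-2 on trains of IFT-B and IFT-A proteins. The transition zone gates its base, and the BBSome, recruited by Arl6, moves membrane proteins. Ttll enzymes add glutamate or glycine to its tubulin. In the retina the best known cilium is that of the photoreceptor, whose outer segment is a modified cilium, and defects of many of these genes cause retinal degeneration.

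Many cilium genes share in their promoters the X-box, an inverted repeat bound by RFX factors, whereas Nrf2 binds antioxidant response elements. RefSeq promoter windows on GRCm38.p6, 250 bases before to 50 after the start of the gene, were listed for 45 of the 55 genes, and 9387 genes of the table had one. The X-box was searched on both strands as GTTNCC and GGNAAC with 0 to 3 bases between them, and an exact match was found for 6 of the 45 genes (13.3%) and in 1.10% of the 9387. With up to 1 mismatch in the 10 fixed letters it was found for 18 of 45 (40.0%) and in 7.78% of all. The antioxidant response element core TGACNNNGC was found for 3 of 45, Bbs5, Bbs12 and Nphp4 (6.67%), and in 16.9% of all. A match is a run of letters, not a bound site. The windows of 4 genes with an exact X-box match and of Bbs5, with the antioxidant core, are shown to set the letters beside the values below. Capitals mark the X-box in the first 4 and the cores, 1 on each strand and not overlapping, in Bbs5.
Ahi1 (chr10:20952297-20952596, plus strand): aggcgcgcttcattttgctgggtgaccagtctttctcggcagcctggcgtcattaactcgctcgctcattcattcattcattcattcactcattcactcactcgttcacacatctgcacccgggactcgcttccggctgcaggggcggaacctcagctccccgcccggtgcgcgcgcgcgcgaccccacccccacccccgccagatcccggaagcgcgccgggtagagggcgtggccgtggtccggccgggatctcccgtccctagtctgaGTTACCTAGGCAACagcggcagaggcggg
Tctn1 (chr5:122264411-122264710, minus strand): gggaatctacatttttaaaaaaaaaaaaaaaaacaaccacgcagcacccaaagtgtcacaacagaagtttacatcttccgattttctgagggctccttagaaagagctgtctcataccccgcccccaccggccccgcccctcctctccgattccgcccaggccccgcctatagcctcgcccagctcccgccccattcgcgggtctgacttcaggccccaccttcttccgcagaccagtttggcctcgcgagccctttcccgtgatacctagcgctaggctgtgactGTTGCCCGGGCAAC
Mks1 (chr11:87852965-87853264, plus strand): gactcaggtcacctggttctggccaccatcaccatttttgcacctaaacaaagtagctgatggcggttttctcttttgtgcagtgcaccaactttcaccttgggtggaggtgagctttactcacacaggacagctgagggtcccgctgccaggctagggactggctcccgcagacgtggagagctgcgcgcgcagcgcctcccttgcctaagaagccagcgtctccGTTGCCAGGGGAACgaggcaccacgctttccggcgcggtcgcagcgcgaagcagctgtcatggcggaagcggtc
Ift57 (chr16:49699044-49699343, plus strand): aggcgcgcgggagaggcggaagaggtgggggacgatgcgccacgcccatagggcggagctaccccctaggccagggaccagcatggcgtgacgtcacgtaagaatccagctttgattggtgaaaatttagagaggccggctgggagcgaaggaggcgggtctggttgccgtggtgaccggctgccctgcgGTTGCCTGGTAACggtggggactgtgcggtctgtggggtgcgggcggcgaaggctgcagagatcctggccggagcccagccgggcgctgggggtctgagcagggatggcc
Bbs5 (chr2:69646921-69647220, plus strand): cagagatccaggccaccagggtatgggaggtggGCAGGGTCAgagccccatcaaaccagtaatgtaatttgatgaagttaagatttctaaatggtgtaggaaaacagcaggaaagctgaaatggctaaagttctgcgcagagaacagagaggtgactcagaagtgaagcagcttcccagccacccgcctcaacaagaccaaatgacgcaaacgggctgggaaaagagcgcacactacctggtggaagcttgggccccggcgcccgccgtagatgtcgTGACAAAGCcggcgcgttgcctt
Of these, Ahi1, Tctn1 and Bbs5 were among the genes that fell in cKO, while Mks1 and Ift57 did not pass the test. Bbs7 and Tctn3, also with an exact X-box match, and Bbs12 and Nphp4, with the antioxidant core, did not pass either (limma adjusted p = 0.386, 0.678, 0.327 and 0.109). The median difference was −0.04 on the log2 scale over the 18 genes with an X-box match and −0.02 over the 27 without one. Of the 18 genes 4 passed in either direction, and of the 27 genes 10, where 10.6% of all genes did. The 10 include Arl3 and Ift20, which were higher in cKO.

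Nfe2l2, the gene of Nrf2, was at 12.7, 16.5, 14.8 and 10.4 FPKM in cKO libraries 1, 3, 4 and 5, against 17.5, 18.8, 23.1 and 17.5 FPKM in the WT libraries. The difference was −0.50 (log2), and all cKO values lay below all WT values (p = 0.0286, two-sided exact permutation test over 70 assignments, which can give no smaller value). The limma adjusted p over all genes was 0.453, and 0.0219 with the replicate number as a block. The Müller cell genes Glul (3150.2 ± 840.3 FPKM in cKO and 3875 ± 825 in WT) and Rlbp1 (1325 ± 168 and 1462 ± 286; SD, n = 4 each) were abundant. So was the rod gene Gnat1 (401 ± 60.1 FPKM in cKO and 366 ± 92.2 in WT), which Müller cells are not known to express. Xist was at 25.01 and 50.004 FPKM in cKO 1 and 3, at 0.0863 and 0.00505 in cKO 4 and 5, and between 27.0 and 72.1 in WT. Libraries 4 and 5 thus nearly lacked Xist in cKO alone. Sex is not given in the labels, and a difference of sex in libraries 4 and 5 cannot be told apart from genotype there. In such bulk samples fewer cells of a type and less RNA per cell cannot be told apart.

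Among the cilium genes 13 fell in cKO, led by Efcab7, Dnah7b, Ttll3, Erich3 and Cep290, which were at 0.502 to 0.552 of the WT level (ratio of FPKM + 0.5). A further 2 rose and 40 did not pass. In limma without a replicate term, 0 of 55 members passed an adjusted p of 0.05, as did 0 of 12339 genes (0%). At an unadjusted p under 0.05 there were 13 members, or 23.6% against 10.6% of all genes, with 11 lower (all genes 6.67%) and 2 higher (3.64%, against 3.95%). The labels do not say what the replicate numbers mark. Libraries of equal number deviated together in all 4 pairs, so a second fit took the number as a block. Below, "rose", "fell" and "passed" refer to it unless stated otherwise, as do limma adjusted p-values. In it 15 members passed (27.3%, against 10.6% of all genes), of which 13 fell (23.6%, against 7.59%) and 2 rose (3.64%, against 2.99%). The median difference over the 55 was −0.04 (log2), beside 0.00 over all genes. An earlier look at these data had already named Efcab7, Ttll3 and Erich3 among its largest falls. Without these 3 genes 12 of 52 members passed (23.1%), of which 10 fell (19.2%) and 2 rose (3.85%).

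Of the 13 genes that fell, 7 also passed when any 1 of the 4 pairs was left out (12.7% of the members, against 2.41% of all genes, or 2.63% in either direction), namely Cep290, Ttll3, Dnah7b, Efcab7, Ahi1, Tctn1 and Dync2h1. Bbs5 no longer passed without pair 4, Cc2d2a without pair 1, Erich3 without pair 1, 3 or 4, and Bbs2 without pair 3, 4 or 5 (limma adjusted p up to 0.0612, 0.0515, 0.0875 and 0.0918). Ift140 and Ift172 passed in none of these fits (0.0791 to 0.116). Neither gene that rose passed in all 4. All cKO values lay below all WT values in 5 members (9.09%, against 2.28%) and above them in 0 (against 2.06%, and 4.34% of all genes in either direction). Within the pairs, 20 members were lower in cKO in all 4 (36.4%, against 19.5% of all genes) and 7 higher in all 4 (12.7%, against 16.7%), together 49.1%, against 36.2% of all genes. The median member differed by −0.16, −0.19, −0.09 and 0.00 in pairs 1, 3, 4 and 5.

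**Figure D1:**
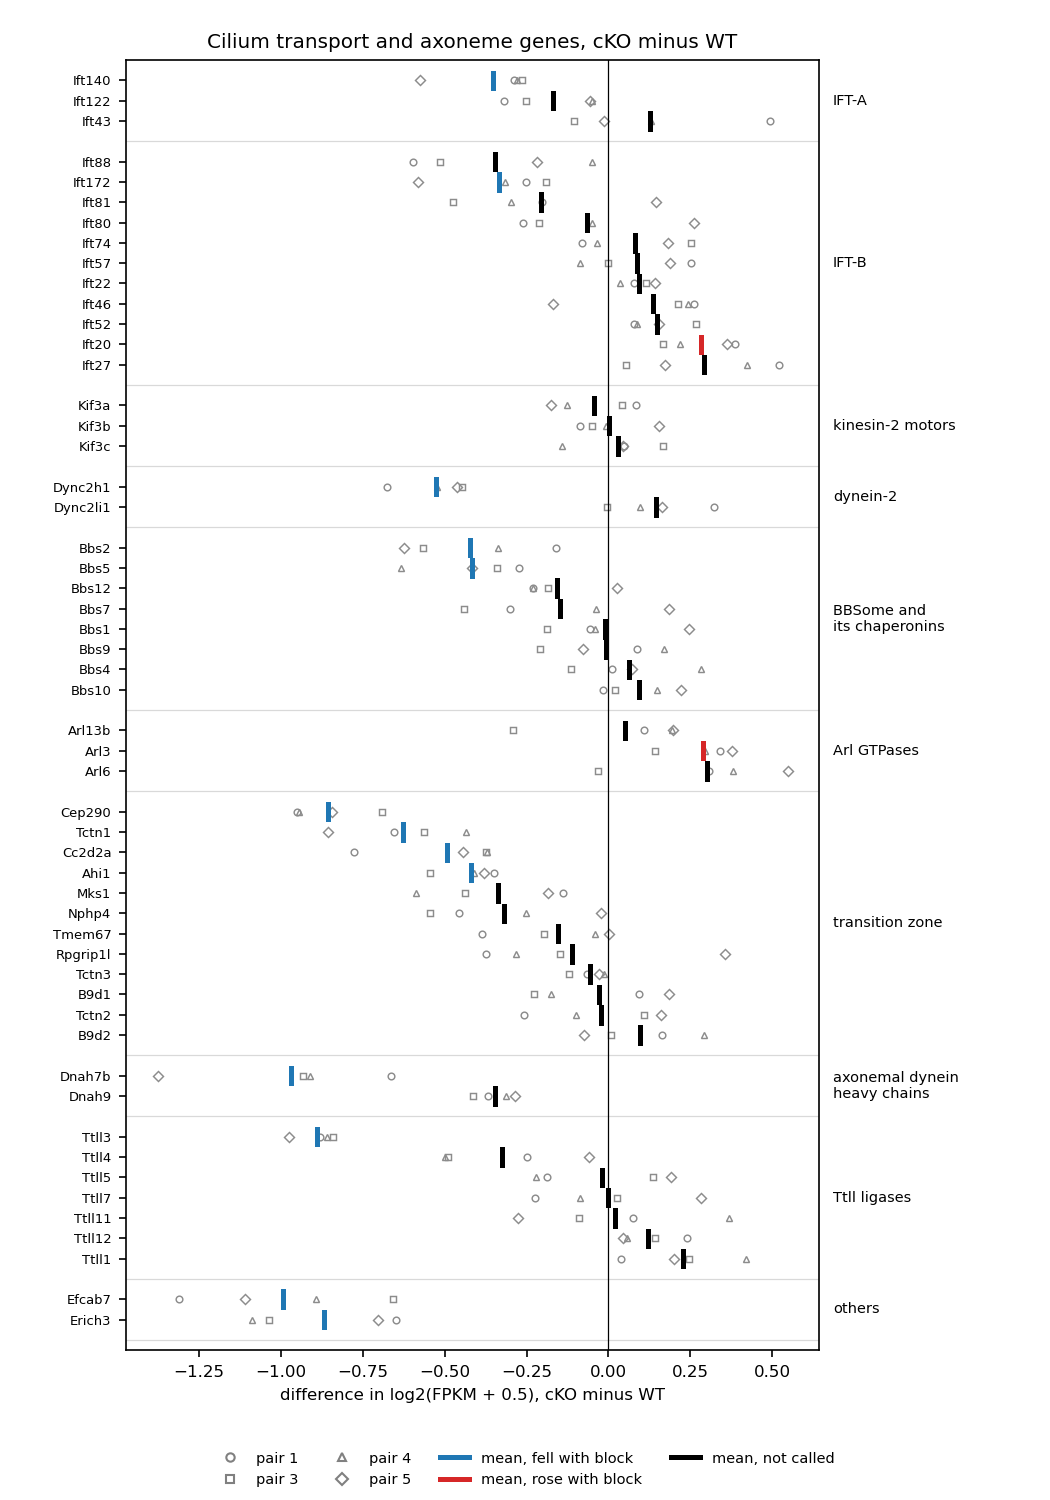
Difference in log2(FPKM + 0.5), cKO minus WT, of 53 of the 55 genes by role, with symbols for the 4 pairs of libraries with the same number and bars for the mean. Blue bars mark the 13 genes that fell with the replicate block, red bars the 2 that rose and black bars 38 that did not pass. The falls reach −0.99 in Efcab7, while kinesin-2 genes lie between −0.04 and 0.03.

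Of the 14 IFT genes 2 fell (14.3%, against 7.59% of all genes), 1 rose (7.14%, against 2.99%) and 11 did not pass. Of the 3 IFT-A genes, which serve the return journey and the entry of membrane proteins, Ift140 fell and Ift122 and Ift43 did not pass. Ift140 was at 14.2, 15.5, 13.2 and 12.5 FPKM in cKO libraries 1, 3, 4 and 5, against 17.4, 18.7, 16.1 and 18.9 FPKM in the WT libraries of the same numbers. The groups did not overlap, and the difference was −0.35 (log2, SE 0.10 from the fit without the block, here and below, limma adjusted p = 0.0346 with the block and 0.453 without). Ift122 averaged 16.4 ± 1.22 FPKM in cKO and 18.6 ± 2.99 FPKM in WT, and Ift43, the most abundant of the 3, 68.1 ± 12.2 FPKM in cKO and 61.9 ± 6.72 FPKM in WT (SD, n = 4 each here and below).

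Of the 11 IFT-B genes, which serve the outward journey, 1 rose, 1 fell and 9 did not pass, with differences between −0.35 and 0.29. Ift20, which also sits at the Golgi and sorts cargo towards the cilium, was at 105, 69.1, 109 and 101 FPKM in cKO, against 79.9, 61.5, 93.6 and 78.8 FPKM in WT. Each cKO library lay above the WT library of its number, and the groups overlapped, with cKO 3 the low one. Ift20 rose by 0.28 (limma adjusted p = 0.0324), and its adjusted p was between 0.0609 and 0.111 with 1 pair left out. The difference was 0.43 without cKO 3 and 0.17 without WT 3, each of which leaves a library without its partner. Within pairs 1, 3, 4 and 5 Ift20 differed by 0.39, 0.17, 0.22 and 0.36.

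Ift172, at the edge of the IFT-B train, was at 18.3, 23.0, 13.5 and 11.7 FPKM in cKO, against 21.9, 26.4, 16.9 and 17.8 FPKM in WT, and fell by 0.33 on the log2 scale (limma adjusted p = 0.0434). Libraries 1 and 3 were the high ones in both groups. The difference was −0.50 without cKO 3, −0.19 without cKO 5 and −0.21 without WT 3, each of which leaves a library without its partner. Within pairs 1, 3, 4 and 5 Ift172 differed by −0.25, −0.19, −0.31 and −0.58. Ift27, a small GTPase of the train, averaged 28.4 ± 3.96 FPKM in cKO and 22.9 ± 1.61 FPKM in WT and did not pass (difference 0.29, limma adjusted p = 0.0801). Ift88, a core protein whose loss abolishes cilia in the mouse, averaged 6.84 ± 1.01 FPKM in cKO and 9.11 ± 2.93 FPKM in WT (difference −0.35, limma adjusted p = 0.0942). The remaining 7, Ift22, Ift46, Ift52, Ift57, Ift74, Ift80 and Ift81, did not pass either, and their differences lay between −0.21 and 0.15.

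Of the 5 transport motor genes only Dync2h1 passed, where 10.6% of all genes did. The kinesin-2 genes Kif3a, Kif3b and Kif3c, which drive trains outward, had 0 of 3 past the threshold, with differences of −0.04, 0.00 and 0.03. Kif3a averaged 31.1 ± 1.51 FPKM in cKO and 32.1 ± 2.42 FPKM in WT (limma adjusted p = 0.720). For Kif3c, 43.3% of the exon length is overlapped by genes on the other strand. Dync2h1, the heavy chain of the return motor dynein-2, was at 9.38, 13.96, 7.53 and 6.28 FPKM in cKO, against 15.3, 19.2, 11.1 and 8.84 FPKM in WT. Every cKO library was below the WT library of its number, although the groups overlapped, since the spread between numbers was wider than the difference. It averaged 9.29 ± 3.37 FPKM in cKO and 13.6 ± 4.599 FPKM in WT (−0.53 log2, limma adjusted p = 0.00820). The difference was −0.35 without WT 3, which leaves cKO 3, the highest cKO library, without its partner. Without the whole of pair 3 the limma adjusted p was 0.0301. Within pairs 1, 3, 4 and 5 Dync2h1 differed by −0.68, −0.45, −0.52 and −0.46. With a correction for exon length the difference was −0.29 (limma adjusted p = 0.0498). The light intermediate chain Dync2li1 of the same motor averaged 27.5 ± 4.37 FPKM in cKO and 24.7 ± 3.03 FPKM in WT and did not pass (difference 0.15, limma adjusted p = 0.242). The difference between the 2 motors was not tested.

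Among the 8 Bbs genes, Bbs5 and Bbs2 fell (25%, against 7.59% of all genes) and 6 did not pass. Bbs5, the BBSome subunit that binds phosphoinositides, was at 34.9, 33.1, 23.8 and 26.2 FPKM in cKO libraries 1, 3, 4 and 5, against 42.3, 42.1, 37.2 and 35.1 FPKM in the WT libraries of the same numbers. All WT libraries were higher, the lowest of them at 35.1 FPKM against the highest cKO library at 34.9. The difference was −0.42 (SE 0.13 without the block, limma adjusted p = 0.0154 with the block, and 0.0612 without pair 4). Bbs2, another subunit, was at 39.4, 33.4, 26.2 and 18.3 FPKM in cKO, against 44.1, 49.7, 33.2 and 28.5 FPKM in WT, and fell by 0.42 on the log2 scale (limma adjusted p = 0.0254). Its groups overlapped, with libraries 1 and 3 high in both. The difference was −0.22 without cKO 5, which leaves WT 5 without its partner, and −0.35 without pair 5 (limma adjusted p = 0.0734). Bbs9, with the highest mean of the 8 over all libraries, averaged 38.2 ± 5.38 FPKM in cKO and 38.4 ± 5.22 FPKM in WT (difference −0.01, limma adjusted p = 0.960). Bbs1, Bbs4 and Bbs7 of the complex and Bbs10 and Bbs12, chaperonin-like proteins that assemble it, did not pass, with differences between −0.16 and 0.09.

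Arl3, the GTPase that releases lipid-anchored cargo from its carriers in the cilium, had the highest level per length of the 55 genes. It was at 199, 147, 194 and 210.0 FPKM in cKO libraries 1, 3, 4 and 5, against 157, 133, 158 and 161 FPKM in the WT libraries of the same numbers. In cKO, library 3 was the low one, as it was in WT, and the other cKO libraries exceeded all WT libraries. Arl3 averaged 187 ± 27.8 FPKM in cKO and 152 ± 13.0 FPKM in WT and rose (0.29 log2, SE 0.13 without the block). The limma adjusted p was 0.0302 with the block, and 0.0467 to 0.102 with 1 pair left out. Arl6, which brings the BBSome to membranes, averaged 82.8 ± 23.4 FPKM in cKO and 66.1 ± 13.1 FPKM in WT (difference 0.30, limma adjusted p = 0.0806, and 0.0359 without pair 3). Arl13b, which activates Arl3, averaged 19.0 ± 3.12 FPKM in cKO and 18.3 ± 3.25 FPKM in WT and did not pass (0.05, limma adjusted p = 0.762).

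The transition zone held 4 of the 13 falls among its 13 genes (30.8%, against 7.59% of all genes) and no rise. Of its 13 genes 11 had a difference below 0, as did 6087 of all 12339 genes. Cep290, the large gate protein whose loss causes Leber congenital amaurosis in humans (ENSMUSG00000019971; GRCm38 chromosome 10, 100487558 to 100574840, plus strand), was at 43.5, 56.1, 26.6 and 27.2 FPKM in cKO libraries 1, 3, 4 and 5, against 84.5, 90.8, 51.7 and 49.3 FPKM in the WT libraries of the same numbers. Libraries 1 and 3 were the high ones in each group, and every cKO library had about the same ratio to the WT library of its number. It averaged 38.4 ± 14.2 FPKM in cKO and 69.1 ± 21.6 FPKM in WT (−0.86 log2, SE 0.28). The limma adjusted p was 0.00162 with the block, between 0.00475 and 0.0158 with 1 pair left out, and 0.453 without the block.

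Ahi1, the jouberin of Joubert syndrome in humans, was the most abundant transition zone gene, at 55.2, 62.8, 56.3 and 47.1 FPKM in cKO, against 70.5, 91.7, 75.0 and 61.4 FPKM in WT. The lowest WT library, number 5, lay inside the cKO range. Ahi1 fell by 0.42 on the log2 scale (limma adjusted p = 0.00718). Tctn1, a tectonic of the Hedgehog pathway gate, was at 10.1, 11.8, 6.70 and 6.23 FPKM in cKO, against 16.1, 17.7, 9.24 and 11.7 FPKM in WT, with numbers 4 and 5 low in both groups. Its fall was −0.63 (limma adjusted p = 0.00720). Cc2d2a, a partner of the tectonics, was at 15.9, 22.4, 14.5 and 12.9 FPKM in cKO, against 27.5, 29.2, 18.9 and 17.7 FPKM in WT (−0.49, limma adjusted p = 0.0142, and 0.0515 without pair 1). Exons of other genes on the opposite strand cover 7.58% of the exon length of Cep290 and 25.5% of that of Tctn1, and the strand setting of the authors' counting is not given.

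The other 9 transition zone genes did not pass. Mks1, which is mutated in Meckel syndrome in humans, averaged 9.02 ± 1.59 FPKM in cKO and 11.5 ± 1.67 FPKM in WT (−0.34, limma adjusted p = 0.0717), and Nphp4, a nephrocystin, 6.39 ± 0.757 FPKM in cKO and 8.22 ± 2.03 FPKM in WT (−0.32, limma adjusted p = 0.109). B9d1, B9d2, Rpgrip1l, Tctn2, Tctn3 and Tmem67 differed by −0.16 to 0.10. Tctn2 and Tctn3, the other tectonics, averaged 10.5 ± 1.18 FPKM in cKO and 10.7 ± 1.82 FPKM in WT, and 9.05 ± 0.626 FPKM in cKO and 9.46 ± 0.985 FPKM in WT.

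Axonemal dynein heavy chains, the motors of beating cilia, were low. Dnah7b (ENSMUSG00000041144; GRCm38 chromosome 1, 46066315 to 46373546, plus strand) was at 6.01, 8.24, 4.87 and 2.35 FPKM in cKO, against 9.82, 16.2, 9.59 and 6.89 FPKM in WT. Each cKO library was lower than its WT partner, and cKO 5 was the lowest of all 8. It fell by 0.97 on the log2 scale (SE 0.34 without the block, limma adjusted p = 0.00461 with the block and 0.453 without). Dnah7b has close copies in the mouse, and reads may have been shared with them. Dnah9 averaged 4.41 ± 2.004 FPKM in cKO and 5.81 ± 2.76 FPKM in WT and did not pass (−0.35, limma adjusted p = 0.0739).

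Of 7 Ttll genes, Ttll3 fell (14.3%, against 7.59% of all genes) and 6 did not pass. Ttll3, a ligase that adds the first glycine to tubulin (ENSMUSG00000030276; GRCm38 chromosome 6, 113389260 to 113414587, plus strand), was at 5.08, 6.31, 3.77 and 3.33 FPKM in cKO libraries 1, 3, 4 and 5, against 9.79, 11.7, 7.25 and 7.04 FPKM in the WT libraries of the same numbers. No cKO library reached the lowest WT library, and the ratio within pairs was close to constant. It averaged 4.62 ± 1.35 FPKM in cKO and 8.95 ± 2.23 FPKM in WT (−0.89, SE 0.22, limma adjusted p = 0.00275 with the block and 0.417 without). Exons of Arpc4 on the same strand overlap 5.61% of its exon length. The glutamate ligase Ttll1, the most abundant of the 7, averaged 23.6 ± 2.65 FPKM in cKO and 20.3 ± 4.04 FPKM in WT (0.23, limma adjusted p = 0.109), and Ttll4, another, 6.32 ± 0.951 FPKM in cKO and 8.14 ± 1.96 FPKM in WT (−0.32, limma adjusted p = 0.0952). Ttll5, Ttll7, Ttll11 and Ttll12 differed by −0.02 to 0.12.

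Efcab7 and Erich3 were low in both groups. Efcab7, which anchors the EVC proteins of Hedgehog signalling at the base of the cilium (ENSMUSG00000073791; GRCm38 chromosome 4, 99829198 to 99912788, plus strand), was at 1.61, 3.07, 3.90 and 2.79 FPKM in cKO libraries 1, 3, 4 and 5, against 4.74, 5.13, 7.68 and 6.60 FPKM in the WT libraries of the same numbers. The highest cKO library was below the lowest WT library. It had the lowest difference of the 55 genes (−0.99, SE 0.24 without the block, limma adjusted p = 0.00609 with the block and 0.417 without). Erich3, a glutamate-rich protein, was at 1.62, 1.43, 1.24 and 0.900 FPKM in cKO, against 2.83, 3.46, 3.197 and 1.78 FPKM in WT, again without overlap, and fell by 0.87 on the log2 scale (limma adjusted p = 0.0194). At such levels the added 0.5 makes the log2 difference smaller than that of the FPKM.

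**Figure D2:**
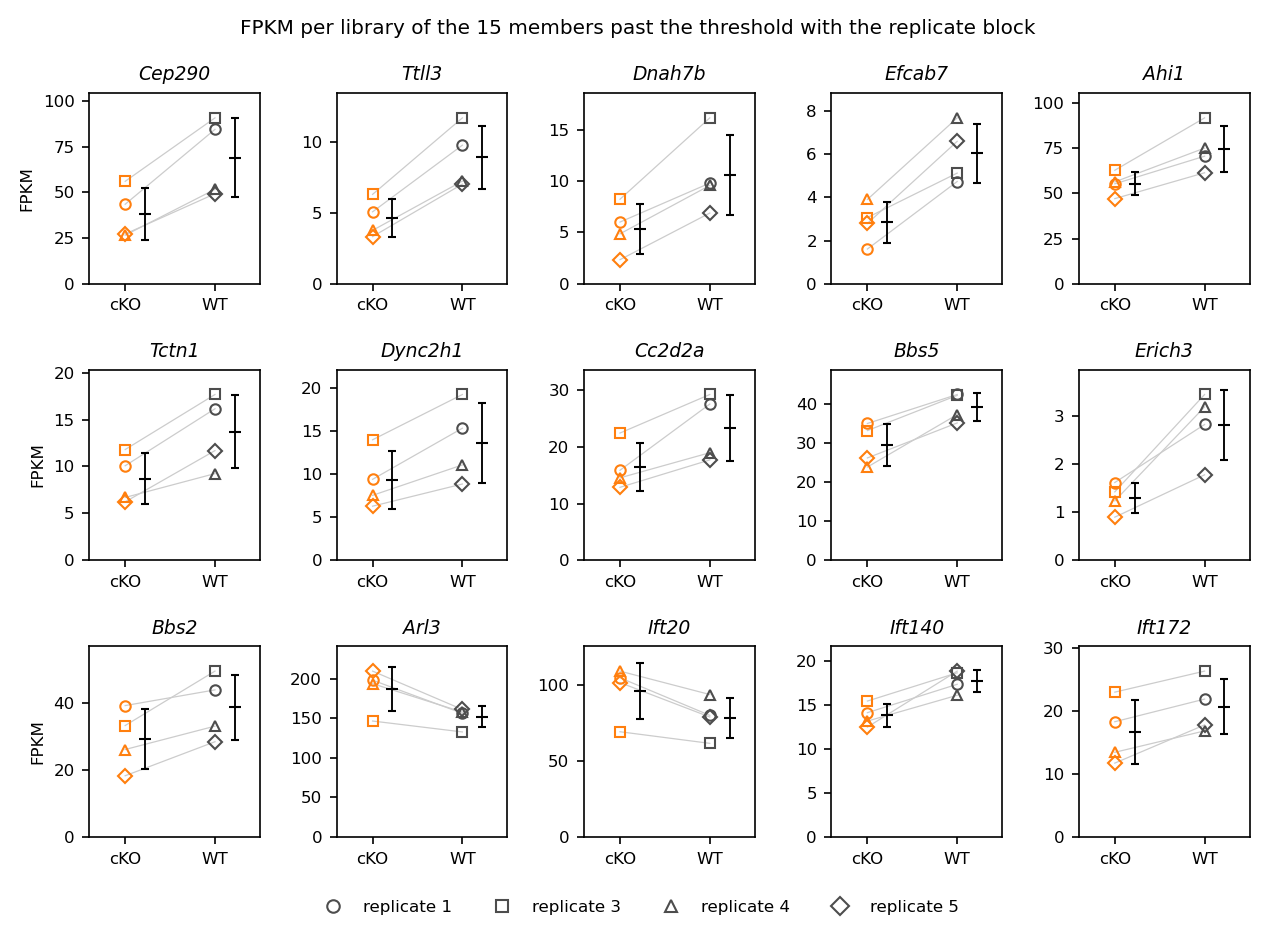
FPKM in each library (symbols, by replicate number, joined by a grey line within a pair) of the 15 genes past the threshold with the replicate block, cKO left and WT right, with the group mean ± SD (n = 4) in black. In 13 panels the cKO member of every pair is lower, and in those of Arl3 and Ift20 it is higher. In Ttll3, Efcab7, Bbs5, Erich3 and Ift140 all cKO values lie below all WT values.

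Longer members tended to be lower in cKO, and length was not used by the rule. Of the 18 members with the longest annotated exons (7040 to 19980 bases), 7 fell, 0 rose, and 17 had a difference below 0, with a median of −0.25 (log2). Of the 19 shortest (1454 to 3311 bases), 3 fell, 2 rose, and the median was 0.09. Over all genes the same order was seen. The median was −0.11 for the 2923 genes of the longest range, of which 15.2% fell and 0.684% rose, and 0.08 for the 3133 of the shortest, of which 3.42% fell and 4.72% rose. Spearman's correlation between exon length and difference was −0.54 across the 55 members and −0.37 across 12327 genes. These are descriptions across genes that share the same 8 libraries.

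A correction of each library for exon length, added after the data were seen, left 11 of 55 members past the threshold with the block, all lower (against 7.48% of all genes in either direction and 4.59% lower). Cep290 differed by −0.70 and Ttll3 by −0.85 in it (limma adjusted p = 0.00403 and 0.00513). Efcab7 and Bbs5, of 2252 and 2445 bases, differed by −1.05 and −0.47 (limma adjusted p = 0.0109 and 0.0133). Dync2h1 was just inside the threshold. Arl3, Ift20, Ift140 and Ift172 no longer passed, with limma adjusted p of 0.0524, 0.0745, 0.116 and 0.103.

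**Figure D3:**
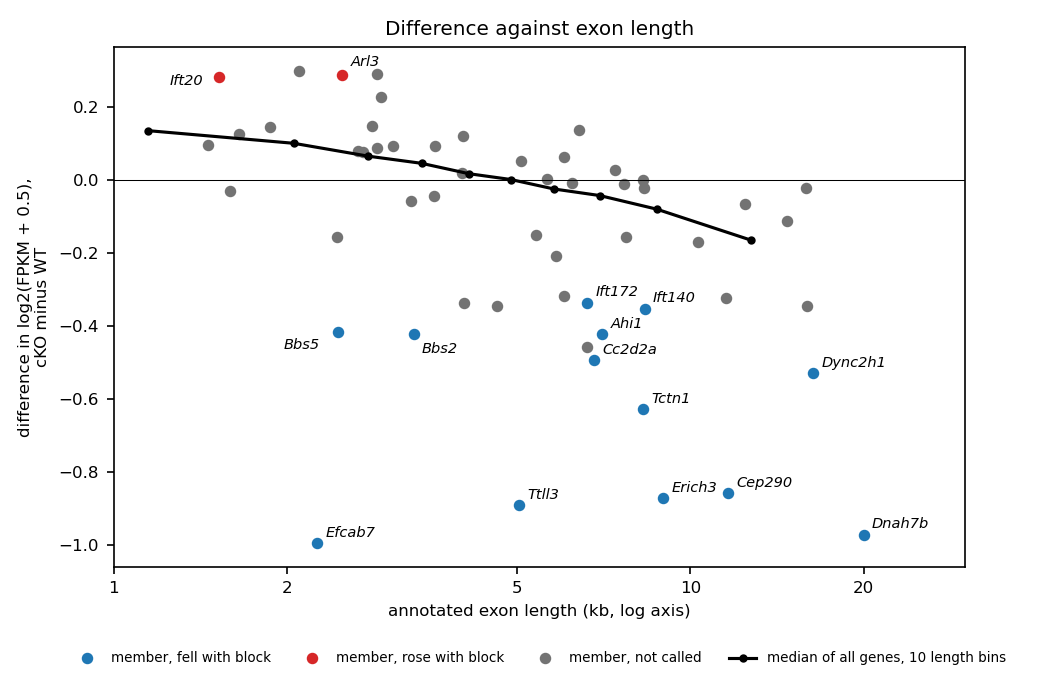
Difference in log2(FPKM + 0.5), cKO minus WT, of the 55 genes against annotated exon length on a log axis, with the medians of all genes in 10 length bins as a black line. The median of all genes runs from 0.14 in the shortest bin to −0.16 in the longest. Efcab7, Ttll3, Erich3, Cep290 and Dnah7b lie between −0.99 and −0.86, below the line.

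Most RNAs of a list of nuclear-retained noncoding RNAs were lower in cKO as well. Of 9 measured other than Xist, 7 fell, 0 rose, and the median difference was −0.91. Peg13 and Neat1 did not pass (0.18 and −0.29, limma adjusted p = 0.174 and 0.118). Their summed level was 1114, 1620, 648 and 343 FPKM in cKO libraries 1, 3, 4 and 5, against 1793, 2579, 1157 and 643 FPKM in WT. Library 3 was highest and library 5 lowest in both groups. Of the 13 members that fell, 8 also had library 3 highest in both groups (Ahi1, Cc2d2a, Cep290, Dnah7b, Dync2h1, Ift172, Tctn1 and Ttll3), as did 15 of the 55 members (27.3%) and 17.6% of all genes. The other 5 did not, with Efcab7 highest in library 4 and Bbs5 in library 1 of both groups. Meg3, an imprinted noncoding RNA, averaged 82.0 ± 49.1 FPKM in cKO and 169 ± 92.3 FPKM in WT (−1.06, limma adjusted p = 0.00162). With the mean log2 level of the 9 RNAs as a covariate and no block, added after the data were seen, 0 of 55 members passed, as without it, and 7 had an unadjusted p under 0.05 (12.7%, against 5.97% of all genes), where 13 (23.6%, against 10.6%) had one without the covariate. Of the 15 genes called with the block, 12 had a difference that moved by over 1.5 times, and Ift172 among them changed sign. Cep290 was at −0.35, Dnah7b at −0.39, Ttll3 at −0.51, Tctn1 at −0.22, Cc2d2a at −0.13, and Dync2h1 and Bbs2 both at −0.02. Efcab7 was at −1.17, Erich3 at −0.62 and Ift140 at −0.27. The difference of that mean was similar in every pair, −0.85, −0.63, −0.72 and −0.76, so with the block the covariate would lie close to the group. A fit with both the covariate and the block was not run. Whether nuclear RNA in the pulldown had a part in the falls was not tested further.

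Marker counts of other cells stand here beside 7.59% of all genes that fell and 2.99% that rose. Of 20 rod markers 1 rose and 0 fell (median difference 0.04), with a summed level of 5495 to 8569 FPKM in cKO and 5283 to 8074 FPKM in WT. Of 10 cone markers 4 fell and 1 rose, and of 15 bipolar cell markers 7 rose (46.7%) and 0 fell. Of 9 amacrine and horizontal cell markers 5 fell (55.6%), with sums of 268 to 319 FPKM in cKO and 337 to 383 in WT, and of 8 ganglion cell markers 4 fell (68.0 to 91.5 and 91.5 to 114 FPKM). Of 20 Müller cell markers 2 fell (12625 to 17332 FPKM in cKO and 11407 to 19471 in WT). Of 5 measured astrocyte markers 2 rose, Gfap, also a marker of reactive Müller cells, at 218 ± 68.0 FPKM in cKO and 91.7 ± 51.8 in WT, and S100b (summed level 253 to 418 FPKM in cKO and 127 to 285 in WT). Microglia, vascular cells and pigment epithelium were represented by 1 of 12, 5 of 15 and 1 of 10 markers, of which 0 passed. The part of these cells in the differences of the cilium genes was not tested.

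Cilium genes outside the rule were taken from 8 lists. Of 161 genes 115 were measured, of which 22 fell (19.1%, against 7.59% of all genes), 2 rose (1.74%, against 2.99%) and 91 did not pass, with a median difference of −0.11. Of the 24 called, 9 that fell also passed when any 1 pair was left out (9 of 115, against 2.41% of all genes). These 9 include all those named below as called except Dynll1, Wdr60, Atat1 and Iqce. Centriole and basal body genes had the most calls, with 11 of 23 lower (47.8%, against 7.59% of all genes), 0 higher and a median of −0.31. Cep164, a distal appendage protein, averaged 13.2 ± 5.10 FPKM in cKO and 22.2 ± 7.45 in WT (−0.75, limma adjusted p = 0.00306), and Odf2, an appendage protein of the mother centriole, 23.5 ± 4.68 and 35.9 ± 7.01 without overlap (−0.61, limma adjusted p = 0.00377).

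Of 21 photoreceptor cilium and axoneme genes 5 fell (23.8%, against 7.59% of all genes), 0 rose and 16 did not pass (median −0.21). Rpgrip1, a scaffold of the photoreceptor connecting cilium, averaged 345 ± 168 FPKM in cKO and 658 ± 228 in WT (−1.02, limma adjusted p = 0.00275). Cep250, a centrosomal linker protein, averaged 31.9 ± 8.78 FPKM in cKO and 48.8 ± 10.8 in WT (−0.62, limma adjusted p = 0.00288). Among 17 other transition zone genes 1 fell (5.88%, against 7.59% of all genes) and 16 did not pass. The 1 that fell was Cspp1 (27.5 ± 10.1 FPKM in cKO and 49.6 ± 20.3 in WT, −0.81, limma adjusted p = 0.00191).

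Of 18 further IFT and motor genes, 2 light chains of dynein rose and Wdr60, a dynein-2 intermediate chain, fell. Together these were 16.7%, against 10.6% of all genes in either direction. Dynll1 was at 134 ± 18.4 FPKM in cKO and 92.5 ± 15.5 in WT, without overlap (0.53, limma adjusted p = 0.0260), and serves other complexes too. Of 8 ciliogenesis transcription factors and kinases 1 fell (12.5%, against 7.59% of all genes). It was Rfx1, an RFX factor (7.79 ± 2.27 FPKM in cKO and 12.2 ± 3.01 in WT, −0.63, limma adjusted p = 0.00720), and Stk36, a kinase, did not pass (−0.39, limma adjusted p = 0.0571). The last 3 lists each had 1 fall and 0 rises, or 9.09%, 14.3% and 10% lower against 7.59% of all genes, Atat1, the tubulin acetylase, of 11 tubulin code genes (−0.28, limma adjusted p = 0.0367), Ccdc39 of 7 motile cilium genes (−0.65, limma adjusted p = 0.00525) and Iqce of 10 Hedgehog genes (−0.34, limma adjusted p = 0.0368). Iqce works with Efcab7. Next in those lists and short of the threshold were Hdac6, a tubulin deacetylase (−0.21, limma adjusted p = 0.130), Dnal4, a dynein light chain (0.27, limma adjusted p = 0.0701), and Ptch1, the Hedgehog receptor (33.4 ± 1.56 FPKM in cKO and 37.6 ± 5.21 in WT, limma adjusted p = 0.201).

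**Figure D4:**
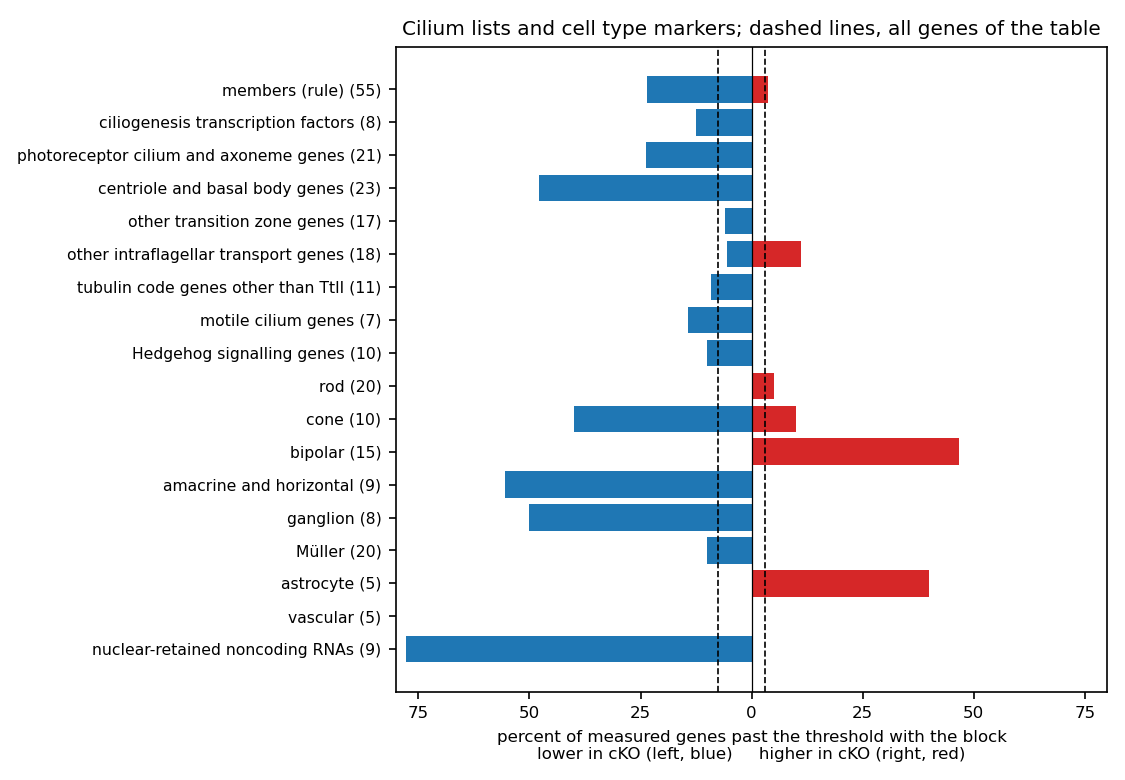
Percent of the measured genes of each list that fell (blue, left) or rose (red, right) in cKO with the replicate block, with the number measured in brackets and dashed lines at 7.59% and 2.99%, the shares of all 12339 genes. On the lower side the bars of the 55 genes, the centriole and photoreceptor cilium lists, the amacrine and ganglion markers and the 9 nuclear-retained RNAs are among those that pass the dashed line, and on the higher side those of bipolar and astrocyte markers.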

How the data were processed

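RNA-seq of ribosome-bound retinal RNA was analysed from 1 table of FPKM, made by the authors and deposited with 1 column per library. Per the labels' protocols, poly(A)-selected RNA was made into directional libraries. STAR and edgeR, with the builds GRCm38 and mm10, are named by the authors in the submitters' processing notes, which give no roles or versions here. The counting tool, annotation, strand setting and gene filter are not given in the sources used here. FPKM summed to 410581 to 448130 per library, fragment numbers are not given, and no counting interval was computed.

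Deposited FPKM were not rescaled, and 0.5 was added before the log2. The cKO and WT libraries (n = 4 each) entered limma 3.58.1 under R 4.3.3 (trended eBayes, two-sided, Benjamini-Hochberg over 12339 genes, threshold 0.05), tested on simulated data. Deviations from group means correlated at 0.261 to 0.591 between equal replicate numbers and −0.479 to 0.211 between others. The labels do not say what a number marks. By a rule of over 0.1 in every pair the numbers were taken to pair the libraries, and a fit with the number as a block (3 residual degrees of freedom, not 6) is given beside the first.

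Exon lengths, overlaps and gene positions are from GENCODE M21 on GRCm38, where 12327 IDs were found. The members and lists were chosen with earlier results of these data known. Named members were those past the threshold in either fit, the 5 with the smallest p among higher ones, and per role the most abundant and the one with the smallest p; up to 2 genes per other cilium list were named by p, and others after their values were seen. Other settings were 2 pseudocounts, a minimum mean FPKM of 5, 3 scalings, library weights, eBayes without trend or robust, and leaving out each library or pair. Later additions, made with the values known, were a length correction (spline, 4 degrees of freedom), scalings and the minimum with the block, the nuclear RNA covariate and libraries with Xist. A few genes counted in the totals are not reported here by name.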

Additional observations from a re-analysis of the deposited data

Results flagged for a closer look

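In 44 groups of 4 libraries (22 named genes, cKO and WT), gaps between libraries were measured on the log2 scale. The share is the gap of a library to the nearest other, divided by the group's range on that scale. Shares of the FPKM printed below differ from these and were not tested. In 2 groups a library had a log2 share that exceeded Dixon's 95% critical value. Chance gives about 1 in 20. Ift20 in cKO 3 was at 69.1 FPKM, against 101 to 109 in the other cKO libraries (share 0.842). Arl3 in WT 3 was at 133 FPKM, against 157 to 161 in the other WT libraries (share 0.842). These are the 2 genes that rose. Without pair 3 the limma adjusted p was 0.0467 for Arl3 and 0.0609 for Ift20.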

How the results depend on the processing

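Without the block 0 members passed under every setting tried, and library weights or the libraries with Xist alone let 1 gene of all pass. With the replicate block 15 members, 1305 genes and 24 context genes passed. Without pair 1, 3, 4 or 5 these were 9, 11, 8 and 10 members, 402, 606, 524 and 821 genes, and 9, 10, 11 and 18 context genes. With the block, TPM scaling gave 16 members and 1350 genes (271 higher, 1079 lower, against 369 and 936), median-of-ratios 15 and 1300, quantile scaling 12 and 1064, a minimum mean FPKM of 5 13 and 1276, the length correction 11 and 923 (357 higher, 566 lower), and pairs 1 and 3 alone, in which all libraries have Xist, 9 and 923. The median difference over members was 0.01 with the length correction, against −0.04. The difference of Nfe2l2 was −0.59 to −0.38 with 1 library left out, where the exact p of 0.0571 is the smallest possible. Of 678 values of named genes, 15 changed sign. Bbs9 ranged over −0.0932 to 0.0755 with 1 library left out, and was at 0.0591 and 0.0160 with the block without pairs 3 and 5, at 0.0649 with library weights and at 0.0534 with the length correction, with or without the block. Kif3a ranged over −0.0736 to 0.000574 with 1 library left out, and was at 0.0114 with library weights and 0.0621 in pairs 1 and 3 with the block. The libraries with Xist were cKO 1 and 3 and all of WT, so WT 4 and 5 were kept without their cKO partners. In these libraries, without the block, 3 of 55 members had an unadjusted p under 0.05 (5.45%, against 2.37% of all genes), where 13 had one in all libraries. There 11 of the 15 called genes moved by over 1.5 times, Cep290 to −0.43 and Ttll3 to −0.59 among them. Within pairs 1 and 3, Cep290 differed by −0.95 and −0.69, and Ttll3 by −0.88 and −0.84. With the nuclear RNA covariate 12 of the 15 moved by over 1.5 times. With that covariate Dync2li1 was at −0.0630 and Ift172 at 0.0385, and Ift172 was at 0.00846 in the libraries with Xist. The cause was not tested. The longer antioxidant core was found for 0 of 45 promoters. Fragment numbers are unknown, so precision at 1 to 3 FPKM (Erich3) rests on the spread of 4 libraries.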
